A study of Mus musculus with 14 samples.

Results

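Transcripts of 10 hepatocyte genes were followed in sorted liver sinusoidal endothelial cells (LSECs), which form the perforated wall of the liver's capillaries. The genes Alb, Apoa1, Apoa2, Ttr, Trf, Fgb, Hp, Ahsg, Cyp2e1 and Cps1 were chosen by name as products of hepatocytes, with earlier results of these data known. Of these 10 genes, 9 had a target among the 23930 targets of the count files, and Trf, the transferrin gene, was not analysed here. All 9 had enough reads to be tested. The 7 aged libraries came from mice of 10 to 11 months and the 7 young libraries from mice of 8 to 10 weeks, and all mice were wild-type C57BL/6J females. Cells were gated as CD45-dim, STAB2-high and CD146-high. Sequencing used the Ion AmpliSeq panel for the mouse transcriptome, in which primer pairs copy a short stretch of each transcript. Experiment 1 held 3 libraries per age and experiment 2 held 4. Libraries are named by age, experiment and replicate number, so that aged 1.3 is the library with replicate number 1.3 in the aged group. Whether every library is a separate mouse is not stated in the labels, and p-values therefore measure the spread between these libraries, part of which may be technical.

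Hepatocytes secrete most plasma proteins and carry out drug oxidation and the urea cycle. They lie behind the LSEC layer across the narrow space of Disse. Their metabolic genes are zonated: drug oxidation is strongest near the central vein and urea synthesis near the portal vein. LSECs are marked instead by scavenger receptors such as STAB2. In bulk libraries of this kind, more hepatocytes, more RNA per hepatocyte and free hepatocyte RNA cannot be told apart.

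Gene reads per library ranged from 6710403 to 13977361. All 10 LSEC marker genes on the list were detected in every library, and Stab2 lay between 1889 and 2208 counts per 1000000 gene reads (CPM). Aged 1.3 stood apart from the other libraries. Its summed LSEC markers were the lowest, at 22580 CPM, against 25177 to 30205 CPM in the other 13 libraries. The LSEC markers Lyve1 and Oit3 had their lowest values there, at 380.9 and 424.8 CPM. Summed markers of T and NK cells reached 484.9 CPM in aged 1.3, against 2.26 to 103.4 CPM elsewhere, and those of Kupffer cells reached 255.6 CPM, against 7.30 to 135.1 CPM. Summed B cell markers were also highest there, at 230.4 CPM, against 1.61 to 227.8 CPM elsewhere. Stellate cell markers, at 73.0 CPM, and cholangiocyte markers, at 42.5 CPM, were not at their highest in that library. None of the listed markers with a target was at 0 in aged 1.3. Their part in the results on hepatocyte genes was not tested, and those results are given with and without aged 1.3.

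The 9 hepatocyte targets together held 0.947% of gene reads in aged 1.3 (99337 reads; 95% exact Clopper-Pearson interval 0.941 to 0.953%). The other aged libraries of experiment 1 held 0.0574% and 0.0641%, and the young libraries of experiment 1 held 0.106%, 0.0779% and 0.0450%. In experiment 2 the aged libraries held 0.149%, 0.109%, 0.166% and 0.163%, and the young libraries held 0.202%, 0.168%, 0.193% and 0.0528%. Aged 1.3 thus lay 4.68-fold above the next highest library, young 2.1, and 21.1-fold above the lowest, young 1.3. Among the other 13 libraries the highest share was 4.49-fold the lowest, and both of these were young libraries. The median share was 0.149% in aged and 0.106% in young libraries (n = 7 each), and 0.129% in aged libraries without aged 1.3 (n = 6). These medians pool both experiments, and within each the order was the opposite. In experiment 1 the median share was 0.0641% in aged libraries (0.0608% without aged 1.3) and 0.0779% in young libraries. In experiment 2 it was 0.156% in aged and 0.180% in young libraries. Intervals cover counting error only, since amplicon reads without molecular identifiers are not independent molecules.

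**Figure D1:**
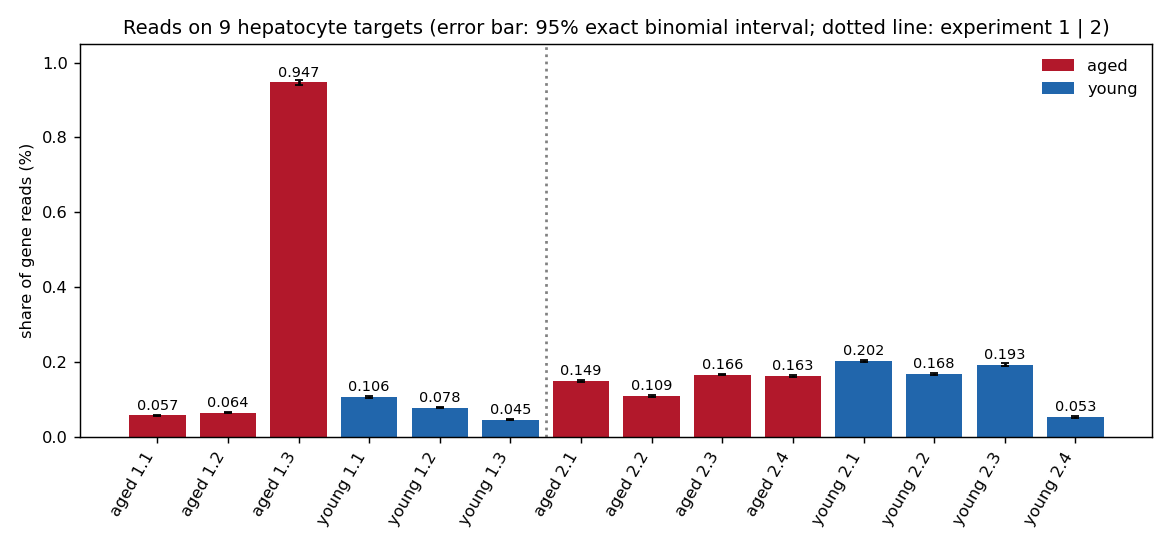
Share of gene reads on the 9 hepatocyte targets (vertical axis, percent) in each library (horizontal axis), aged in red and young in blue. Error bars are 95% exact binomial intervals. Aged 1.3 stands at 0.947% and the other 13 libraries lie between 0.0450% and 0.202%.

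Levels are given below in CPM of all gene reads, and since a single amplicon stands for each gene they are compared between libraries and not between genes. Alb encodes albumin, the main carrier of fatty acids and bilirubin in plasma. The Alb target (NM_009654.4) had 369.5 CPM in the lowest, 914.8 CPM in the median and 3699 CPM in the highest of the aged libraries, against 281.4, 595.1 and 1292 CPM in the young libraries. The groups overlapped: the highest value was aged 1.3, and the 6 other aged libraries reached at most 1123 CPM, below the highest young library. The medians of Alb by experiment were 396.9 CPM for aged against 445.4 CPM for young libraries in experiment 1, and 1012 CPM for aged against 1015 CPM for young libraries in experiment 2. The higher pooled median of the aged libraries was thus not seen within either experiment. Fgb encodes the beta chain of fibrinogen, the clotting protein. Fgb (NM_181849.3) had 20.3, 45.3 and 416.3 CPM in the lowest, median and highest aged libraries, against 10.8, 31.9 and 58.6 CPM in the young libraries. Again aged 1.3 was far above the rest, and the other aged libraries, at up to 50.1 CPM, lay within the young range. Unlike those of Alb, the medians of Fgb were higher in aged libraries within both experiments. They were 27.1 CPM for aged (23.7 CPM without aged 1.3) against 21.0 CPM for young libraries in experiment 1. In experiment 2 they were 46.6 CPM for aged against 45.9 CPM for young libraries.

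Alb and Fgb followed each other closely across libraries, as shown further on, and the 250 bases before their RefSeq transcript starts (build GRCm38.p6) are shown because both hold the letters GTTAAT, the core of the recognition sequence of the hepatocyte factor HNF1. Cyp2e1 is shown beside them as a gene of a metabolic enzyme whose window does not hold these letters. The windows of Apoa1, Apoa2 and Ahsg do not hold them either, though Apoa1 and Fgb were the closest pair over the 14 libraries (r = 0.972). Whether the letters go with shared variation was not tested. Capitals mark GTTAAT on either strand.
Alb, chr5:90460620-90460869, plus strand: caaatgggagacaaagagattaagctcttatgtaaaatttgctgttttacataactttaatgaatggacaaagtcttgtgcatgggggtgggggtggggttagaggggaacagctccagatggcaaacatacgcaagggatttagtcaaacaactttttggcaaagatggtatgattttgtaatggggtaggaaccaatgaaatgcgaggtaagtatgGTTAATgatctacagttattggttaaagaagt
Fgb, chr3:83049864-83050113, minus strand: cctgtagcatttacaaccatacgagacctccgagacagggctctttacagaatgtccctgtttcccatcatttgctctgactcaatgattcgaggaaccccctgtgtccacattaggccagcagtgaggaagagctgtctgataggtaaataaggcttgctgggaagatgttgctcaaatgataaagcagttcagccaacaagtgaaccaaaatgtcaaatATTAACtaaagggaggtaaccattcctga
Cyp2e1, chr7:140763569-140763818, plus strand: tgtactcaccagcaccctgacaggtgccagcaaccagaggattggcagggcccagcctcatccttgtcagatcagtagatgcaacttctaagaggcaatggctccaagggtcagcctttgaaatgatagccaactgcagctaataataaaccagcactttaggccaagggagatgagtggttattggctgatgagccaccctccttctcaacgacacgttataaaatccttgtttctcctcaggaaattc
The first base of the match lies 32 bases before the start in Alb and 29 bases before it in Fgb. Searched on both strands, GTTAAT was present in 6.43% of the 32851 promoter windows in the table. Of the 7 windows that the table gives for 6 of the members, 2 held it. The letters CAAAGT, part of the HNF4 recognition sequence, were present in the windows of Alb and Ahsg and in 12.6% of all windows. CCAAT was present in 4 of the 7 windows and in 33.8% of all windows, and TATAAA in 2 of the 7 and in 12.4% of all. These matches describe the letters only.

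Apoa1 and Apoa2 encode the main proteins of high-density lipoprotein. Apoa1 (NM_009692.4) had 22.5, 32.4 and 395.7 CPM in the lowest, median and highest aged libraries, against 13.7, 39.2 and 63.9 CPM in the young libraries. Without aged 1.3 the aged libraries reached 48.3 CPM and lay within the young range. Apoa2 (NM_001305549.1) had 86.5, 287.8 and 3289 CPM in the lowest, median and highest aged libraries, against 84.2, 249.2 and 612.4 CPM in the young libraries. The next highest library for Apoa2 was young 2.1, and aged 1.3 was 5.37-fold above it. Within experiments the medians of Apoa2 were lower in aged libraries, at 101.2 CPM for aged against 170.0 CPM for young libraries in experiment 1, and at 303.1 CPM for aged against 401.8 CPM for young libraries in experiment 2. Ttr encodes transthyretin, a carrier of thyroid hormone and of retinol-binding protein. Ttr (NM_013697.5) had 2.25, 15.7 and 104.4 CPM in the lowest, median and highest aged libraries, against 3.23, 7.64 and 26.3 CPM in the young libraries. Its pooled median was higher in aged libraries, but its medians within experiments were lower. They were 3.48 CPM for aged against 4.85 CPM for young libraries in experiment 1, and 19.6 CPM for aged against 23.0 CPM for young libraries in experiment 2. Apart from aged 1.3, Ttr separated by experiment more than by age, with 3.77 ± 1.176 CPM in experiment 1 (SD, n = 5) and 19.75 ± 6.66 CPM in experiment 2 (SD, n = 8).

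Hp encodes haptoglobin, an acute phase protein that binds free haemoglobin and is also made by neutrophils. Hp (NM_017370.2) had 3.25, 9.92 and 66.1 CPM in the lowest, median and highest aged libraries, against 1.94, 4.70 and 11.1 CPM in the young libraries. Here the second highest library was aged as well, at 17.96 CPM in aged 2.3, but the lowest aged library lay within the young range. The medians of Hp were higher in aged libraries within both experiments. They were 4.92 CPM for aged against 3.23 CPM for young libraries in experiment 1. In experiment 2 they were 13.9 CPM for aged against 7.78 CPM for young libraries. Summed neutrophil markers ran from 32.7 to 1823 CPM in aged and from 18.5 to 234.1 CPM in young libraries. They were highest in aged 2.3, aged 1.3 and aged 2.2, at 1823, 818.1 and 665.3 CPM, which were also the highest libraries for Hp. In young 2.1, the highest young library for Hp, they were at 43.4 CPM. The part of neutrophils in the values of Hp was not tested. Ahsg encodes fetuin-A, an inhibitor of calcification. Ahsg (NM_001276450.1) had 47.2, 65.8 and 670.1 CPM in the lowest, median and highest aged libraries, against 29.0, 60.7 and 81.7 CPM in the young libraries. By experiment its medians were 55.9 CPM for aged against 58.6 CPM for young libraries in experiment 1, and 66.8 CPM for aged against 67.9 CPM for young libraries in experiment 2. Ahsg was the steadiest member outside aged 1.3, where the highest library was 3.07-fold the lowest.

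Cyp2e1 encodes an ethanol- and drug-oxidising cytochrome P450 of pericentral hepatocytes. Cyp2e1 (NM_021282.2) had 14.2, 31.3 and 743.3 CPM in the lowest, median and highest aged libraries, against 15.7, 44.96 and 108.4 CPM in the young libraries. Without aged 1.3 no aged library exceeded 41.3 CPM, whereas 4 young libraries did, at 44.96, 51.2, 67.7 and 108.4 CPM. Cps1 encodes the mitochondrial enzyme that commits ammonia to the urea cycle, and it is a periportal gene. Cps1 (NM_001080809.2) had 1.996, 10.4 and 89.6 CPM in the lowest, median and highest aged libraries, against 1.61, 7.20 and 20.3 CPM in the young libraries. By experiment its medians were 2.99 CPM for aged against 4.31 CPM for young libraries in experiment 1, and 10.6 CPM for aged against 10.7 CPM for young libraries in experiment 2. Its count in young 2.4, 15 reads, was the lowest of any member.

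**Figure D2:**
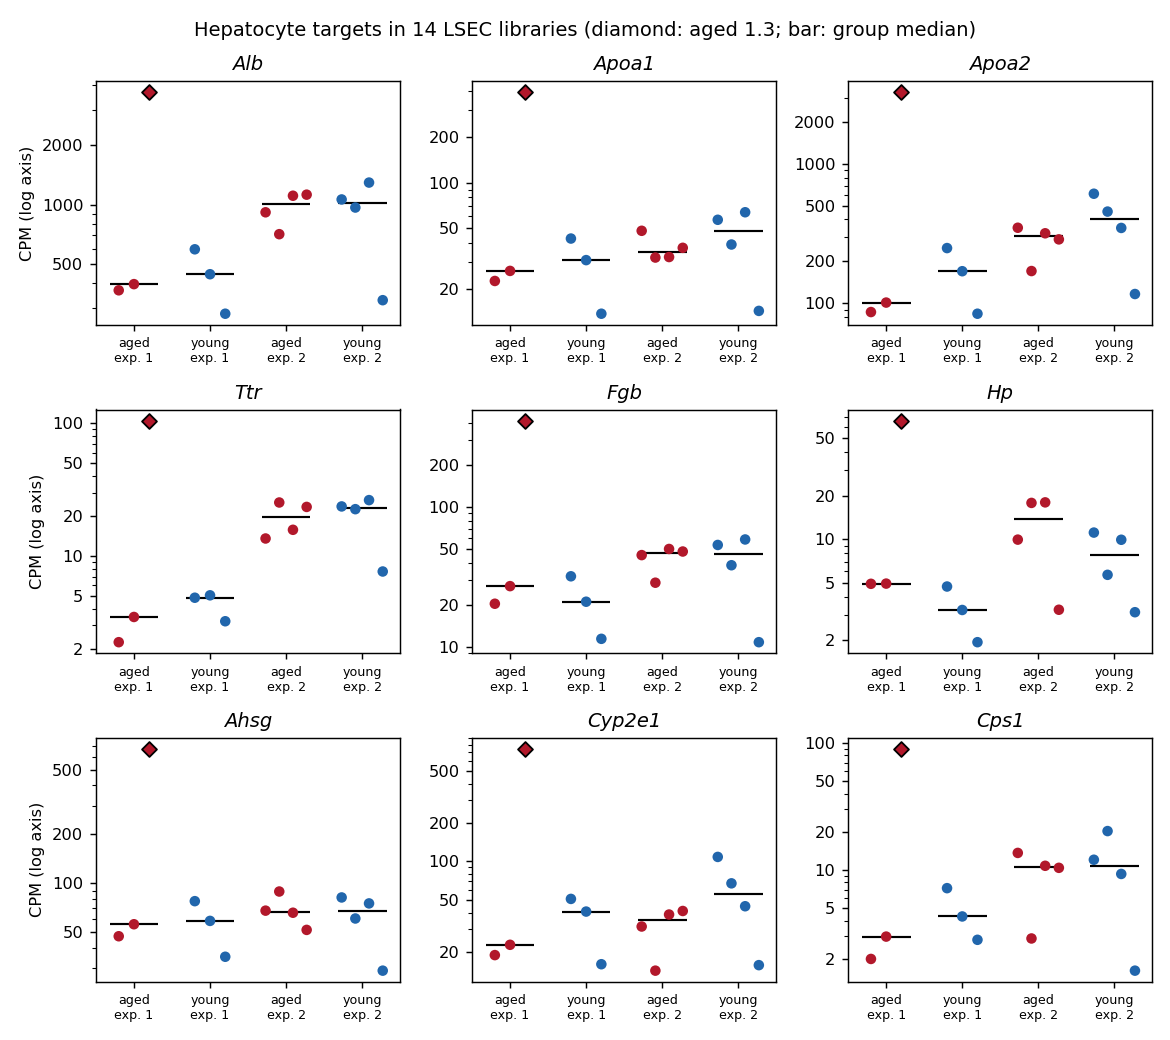
Level of each of the 9 hepatocyte targets (vertical log axis, CPM) in the aged and young libraries of each experiment (horizontal axis). Points are libraries, the diamond is aged 1.3 and horizontal bars are group medians. In each panel aged 1.3 is the highest library, and the remaining aged and young libraries overlap.

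Aged and young libraries overlapped for each of the 9 members, with aged 1.3 and without it. Overlap was also the rule among all tested targets, where it was counted only without aged 1.3. Of these targets, 0.197% had every aged library below every young library, and 0.429% had the reverse. All 9 members were highest in aged 1.3, against 18.3% of all tested targets. The excess was unequal. Relative to the mean of aged 1.1 and aged 1.2, aged 1.3 was 9.65-fold higher for Alb, 13.0-fold for Ahsg, 13.4-fold for Hp, 16.2-fold for Apoa1 and 17.6-fold for Fgb. It was 35.05-fold higher for Apoa2, 35.9-fold for Cyp2e1, 35.9-fold for Cps1 and 36.5-fold for Ttr. Alb therefore made up 39.0% of the member reads in aged 1.3, against 52.5 to 69.1% in the other libraries, and Apoa2 made up 34.7%, against 15.1 to 30.3%.

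Read ratios within a library do not depend on its depth. Per 100 Alb reads, Apoa2 had 88.9 reads in aged 1.3 and 23.4 to 57.7 reads in the other libraries. Cyp2e1 had 20.1 reads per 100 Alb reads in aged 1.3 and 2.01 to 10.2 reads elsewhere. Apoa1, Fgb, Ahsg and Cps1 also had their highest ratios in aged 1.3, at 10.7, 11.3, 18.1 and 2.42. Elsewhere these reached at most 7.21, 6.84, 14.1 and 2.10. Ttr and Hp had their highest ratios in aged 2.2. In aged libraries of experiment 2 the Cyp2e1 ratio was 2.01 to 3.68, and in young libraries of experiment 2 it was 3.48 to 10.2, so both ranges met only at their ends. Fgb kept closest to Alb: without aged 1.3 the SD of its log2 ratio to Alb was 0.26, against an SD of 0.80 for its own log2 CPM. For Ahsg the ratio varied more than the gene itself, with an SD of 0.56 for the log2 ratio and 0.47 for log2 CPM. Ahsg had 12.5 to 14.1 reads per 100 Alb reads in experiment 1 without aged 1.3, and 4.60 to 12.5 in experiment 2. Ttr went the other way between experiments, with 0.608 to 1.15 reads per 100 Alb reads in experiment 1 without aged 1.3 and 1.42 to 3.56 in experiment 2. The proportions of the member reads thus differed between libraries. The ratio of pericentral Cyp2e1 to periportal Cps1 was 8.29 reads per read in aged 1.3, within the 5.66 to 9.48 seen in the other libraries of experiment 1. In experiment 2 it was 2.30 to 4.92 in aged and 3.34 to 9.73 in young libraries. The highest of these, in aged 2.2 and young 2.4, rest on only 26 and 15 Cps1 reads.

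**Figure D3:**
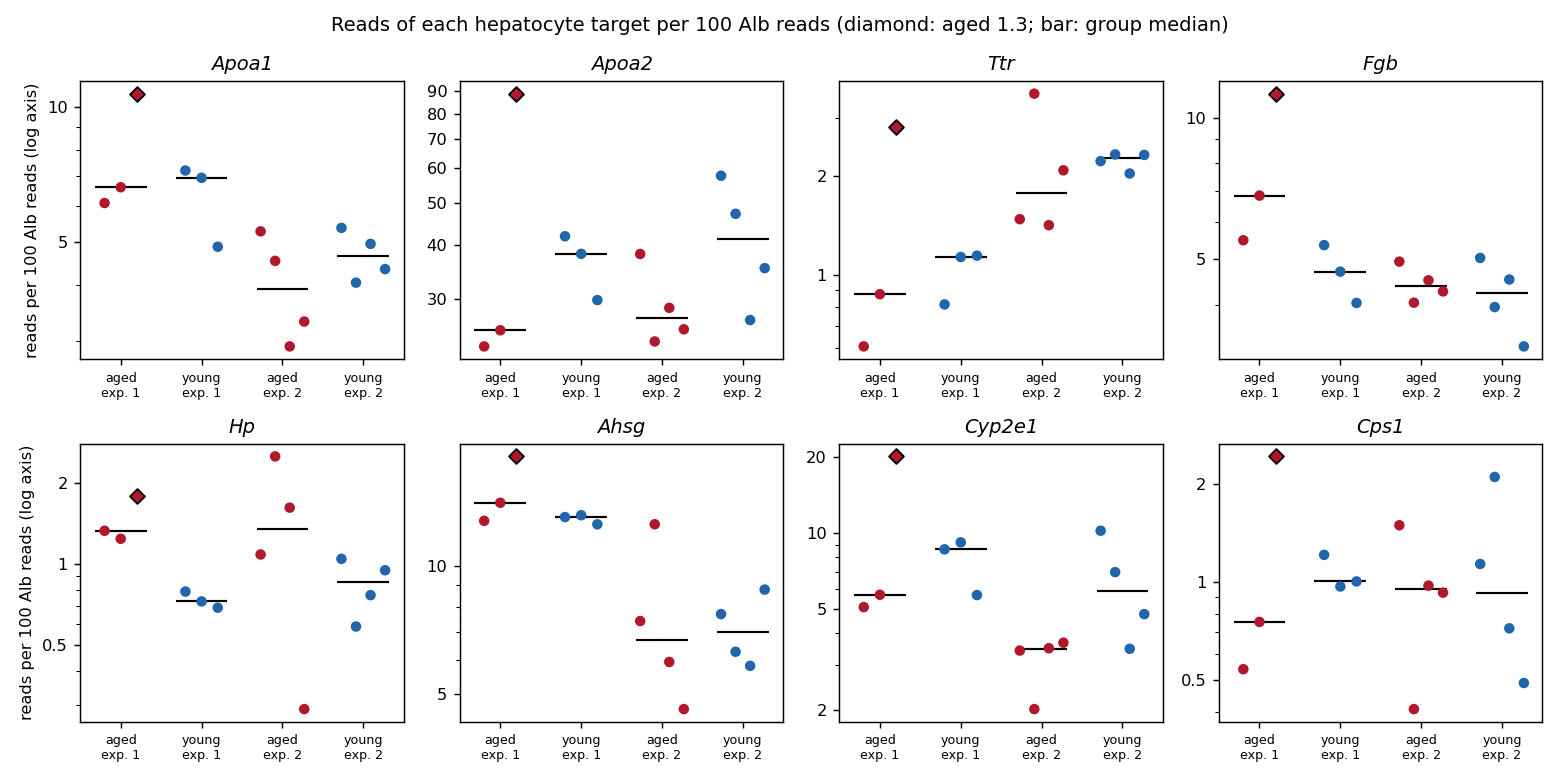
Reads of each hepatocyte target per 100 Alb reads of the same library (vertical log axis), by age and experiment (horizontal axis), with the diamond for aged 1.3 and bars for group medians. Apoa2 and Cyp2e1 have their highest ratios in aged 1.3, at 88.9 and 20.1, as do Apoa1, Fgb, Ahsg and Cps1. Outside aged 1.3, Ttr and Ahsg separate mainly by experiment.

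The levels of the members varied together across libraries. Over the 14 libraries the 36 pairs had Pearson's r of 0.661 to 0.972 with a median of 0.870 (log2 CPM, prior count 2), and Spearman's rho had a median of 0.771. The closest pair was Apoa1 and Fgb (r = 0.972, permutation p = 1e-05, the smallest that 100000 permutations can give; rho = 0.916, permutation p = 3e-05), with Benjamini-Hochberg adjusted p-values of 7.2e-05 and 0.00027 over the 36 pairs. All 36 pairs had an adjusted permutation p under 0.05 for r, and 33 did for rho. At r of at least 0.7 stood 34 of the 36 member pairs, against 8.86% of all pairs of the 14168 tested targets, whose median r was −0.017. All pairs share the libraries and their depth. Without the 2 libraries farthest from the median of the first gene, r was 0.215 to 0.930 with a median of 0.691.

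Without aged 1.3 the median r was 0.732, and 29 of 36 pairs had an adjusted permutation p under 0.05. Here and over the 14 libraries, permutations ran over both experiments together, although levels differed between them. Alb averaged 417.7 CPM in experiment 1 without aged 1.3 and 938.4 CPM in experiment 2. A shift between experiments that the members share thus enters these values and p-values. After the means of the 4 age-by-experiment groups were removed, the median r over all 14 libraries was 0.936 and the median rho 0.796. An adjusted permutation p under 0.05 was then reached by 36 of 36 pairs for r and 33 for rho, with aged 1.3 included. Alb and Fgb formed the closest pair without aged 1.3 (r = 0.946, permutation p = 1e-05, adjusted p = 0.00036), with rho = 0.956. At r of at least 0.7 stood 20 of 36 member pairs, against 9.19% of all pairs of targets. Hp was the loosest member, with a median r of 0.603 to the others and r = 0.226 with Cyp2e1 (permutation p = 0.457). Within experiment 1, which holds aged 1.3, the median r was 0.985 and 31 of 36 pairs passed the exact permutation test (n = 6). Without aged 1.3 that experiment has 5 libraries, and no r is given for them, so how far the 31 pairs rest on aged 1.3 was not tested. Within experiment 2 the median r was 0.742 and 5 of 36 pairs passed the exact permutation test (n = 8), and none did for rho. These 5 were Alb with Fgb at r = 0.989, Apoa2 with Cyp2e1 at 0.943, Apoa1 with Fgb at 0.914, Apoa2 with Cps1 at 0.913 and Hp with Ahsg at 0.81. The relation thus held by test for a minority of pairs within experiment 2. All 36 pairs kept a positive r in both experiments. The median rho within experiment 2 was 0.381, and rho was below 0 for 2 pairs there, Ttr with Cps1 at −0.14 and Hp with Cyp2e1 at −0.071.

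Other genes of hepatocytes were followed from pathway lists. Of 90 listed genes that are not members, 85 had a target and 74 were tested. Of these 74, 66 were highest in aged 1.3, against 18.3% of all tested targets. Their summed level was 11404 CPM in aged 1.3, against 1261 to 2557 CPM elsewhere. Lists of secreted proteins followed the mean log2 CPM of the members most closely. All members but Cyp2e1 and Cps1 encode secreted proteins themselves, so this order is partly built into that mean. Without aged 1.3 the median r to that mean was 0.89 for the 5 carrier proteins, 0.74 for the 8 apolipoproteins, 0.80 for the 16 coagulation genes and 0.71 for the 6 acute phase genes. It was 0.10 for the 11 genes of the P450 and detoxification list, 0.31 for the 5 of the urea cycle and 0.29 for the 16 of amino acid and sugar metabolism.

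Among carriers, the vitamin D-binding protein gene Gc had 978.7 CPM in aged 1.3 and at most 173.7 CPM elsewhere. The retinol-binding protein gene Rbp4 had 374.5 CPM there and at most 89.7 CPM elsewhere. Ambp, the precursor of a heme-binding microglobulin, had 139.7 CPM in aged 1.3 and up to 89.8 CPM elsewhere, and Hpx, for the heme carrier hemopexin, had 114.8 CPM and at most 18.6 CPM. Of the apolipoprotein genes, Apoc1, Apoc3 and Apoc4 had 988.8, 614.3 and 133.7 CPM in aged 1.3, against at most 180.3, 95.8 and 23.2 CPM elsewhere. Apob, the protein of very-low-density lipoprotein, had 251.5 CPM and at most 103.9 CPM. These secreted products thus shared the pattern of the members.

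Coagulation and acute phase genes did so too, with exceptions. The antithrombin gene Serpinc1 had 307.0 CPM in aged 1.3 and at most 72.5 CPM elsewhere, and Kng1, for kininogen, had 318.1 and at most 58.7 CPM. The vitronectin gene Vtn had 147.5 and at most 57.3 CPM, and the prothrombin gene F2 had 142.2 and at most 35.8 CPM. Proc, for protein C, was the only tested gene of that list that was not highest in aged 1.3, a gene named after its values were seen. In the acute phase list, Hamp, for the iron hormone hepcidin, had 633.5 CPM in aged 1.3 and at most 111.7 CPM elsewhere. Itih4 and Orm1 had 218.1 and 158.7 CPM there, against at most 54.7 and 31.4 CPM elsewhere. Apcs, for serum amyloid P, had 37.3 CPM and at most 25.3 CPM, and did not follow the members without aged 1.3 (r = −0.23).

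The listed metabolic genes were also mostly highest in aged 1.3. Elsewhere they followed the mean of the mostly secreted members weakly. This was not so for every metabolic gene. Cyp2b9, Ugt2b34 and Cyp2d10, from the 10 targets most like the members, had r of 0.975, 0.967 and 0.944 without aged 1.3. They stand outside the metabolic lists and were picked for a high r over the 14 libraries, so a high r was largely built in. Ces1c, a carboxylesterase, had 401.0 CPM in aged 1.3 and at most 48.3 CPM elsewhere. The glutathione transferase gene Gsta3 had 394.2 and at most 98.6 CPM, and the alcohol dehydrogenase gene Adh1 had 173.8 and at most 75.0 CPM. Cyp8b1, of bile acid synthesis, had 56.6 CPM in aged 1.3 and up to 69.1 CPM elsewhere. In the urea cycle, Arg1, Otc, Asl and the ornithine transporter Slc25a15 had 105.3, 97.9, 54.2 and 50.6 CPM in aged 1.3, against at most 26.8, 37.9, 31.2 and 22.2 CPM elsewhere. Among genes of metabolism, the fatty acid-binding protein gene Fabp1 had 342.6 CPM in aged 1.3 and at most 101.8 CPM elsewhere. Gnmt and Uox, for glycine methyltransferase and urate oxidase, had 263.8 and 136.7 CPM, against at most 49.2 and 46.8 CPM. Of the hepatocyte transcription factors, Hnf4a had 28.5 CPM in aged 1.3 and at most 5.81 CPM elsewhere, while Cebpa had 122.8 and up to 121.6 CPM.

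The zonated genes differed among themselves in aged 1.3. Of the 8 other pericentral genes tested, 7 were highest in that library, as were 6 of the 9 other periportal genes. Rgn, Oat and Cyp2c50 of the pericentral list had 230.7, 311.2 and 78.7 CPM in aged 1.3, against at most 41.1, 164.6 and 10.9 CPM elsewhere. Glul, for glutamine synthetase, had 405.9 CPM in aged 1.3 and up to 502.0 CPM elsewhere. Of the periportal list, Pck1, for the gluconeogenic enzyme PEPCK, had 155.5 CPM in aged 1.3 and at most 43.8 CPM elsewhere. The periportal genes Cyp2f2, Hal and Sds, named after their values were seen, were not highest there. Cyp2f2 had 3.81 CPM in aged 1.3 and 1.74 to 16.4 CPM elsewhere, and Sds, a serine dehydratase, had 4.39 CPM and up to 9.10 CPM. Hal, a histidine ammonia-lyase, had 14.97 CPM and up to 16.6 CPM. The difference between the lists was not tested.

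**Figure D4:**
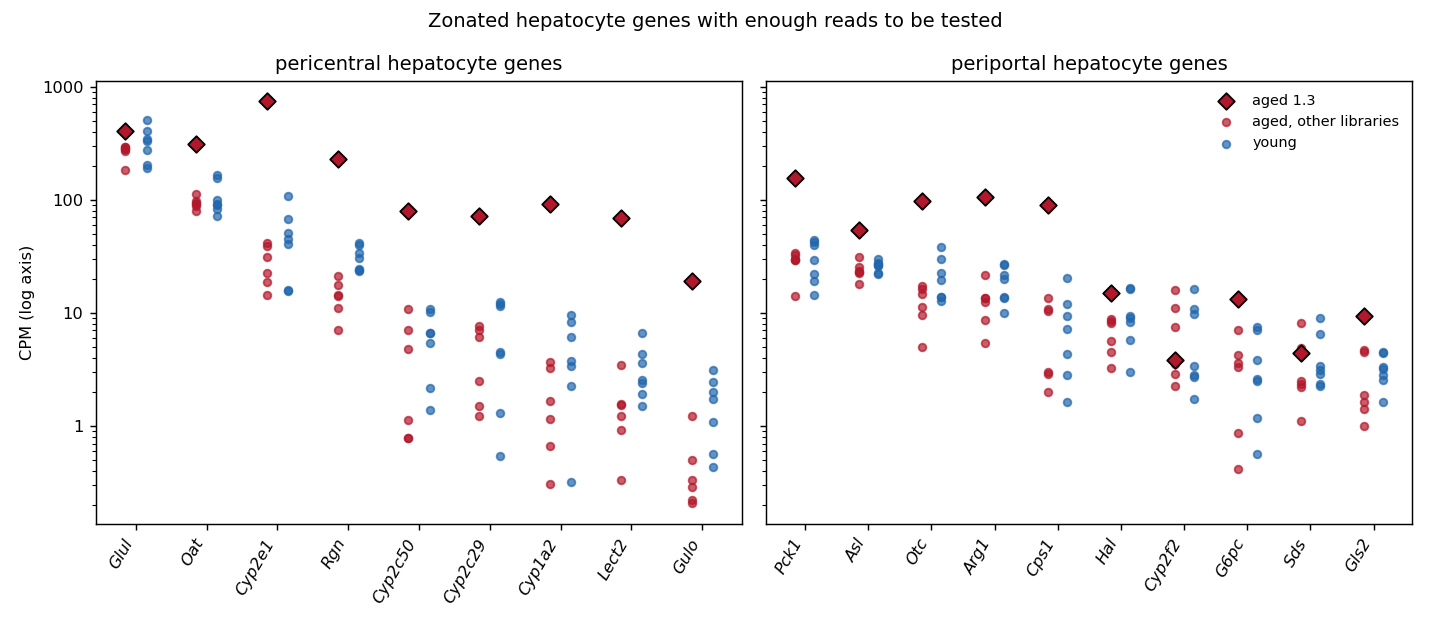
Level (vertical log axis, CPM) of the tested pericentral genes (left) and periportal genes (right), each gene on the horizontal axis with aged libraries in red, young libraries in blue and aged 1.3 as a diamond. Aged 1.3 lies above the other libraries for most pericentral genes, and among the other libraries for the periportal genes Cyp2f2, Hal and Sds.

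Among the 10 targets most like the members, by r with their mean log2 CPM over the 14 libraries, were Cyp2b9 (0.988), Ugt2b34 (0.974), Kng1 (0.973), Rbp4 (0.973), Pemt (0.971), Cyp2d10 (0.971), Gc (0.967), Adtrp (0.967) and Serpinf1 (0.966). Pemt encodes an enzyme of phosphatidylcholine synthesis. Without aged 1.3 their r was 0.907 to 0.975. An r of at least 0.9 was reached by 69 of 14159 targets, and by 26 without aged 1.3. P450, Ugt2b, Ces1, Gsta, Orm and Hamp genes have close relatives, so their counts are uncertain where reads can be shared.

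In the age comparison none of the hepatocyte members passed the test. With experiment as a term, edgeR called 0 of 9 members, against 0.162% of the 14168 tested targets at an adjusted p under 0.05. At an unadjusted p under 0.05 stood 1 of 9 members, Hp, and 959 of all tested targets. All 9 log2 fold changes, aged over young, were above 0, with a median of 0.93, against −0.0022 over all tested targets. Hp had the largest, 1.57 (SE 0.683, 95% interval 0.11 to 3.04, edgeR adjusted p = 0.693), and Cyp2e1 the smallest, 0.58 (SE 0.949, 95% interval −1.46 to 2.62, adjusted p = 0.999 by edgeR). Alb had 0.70 (SE 0.511, 95% interval −0.40 to 1.80, edgeR adjusted p = 0.999). DESeq2 also called 0 of 9, against 1.06% of all tested targets, and limma-voom called 0 of 9, against 0.155%.

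The direction rested on aged 1.3. That library was left out because it held the most member reads. Leaving out the highest aged library lowers the aged values of the members by construction, so the signs that follow are no test. Without aged 1.3 edgeR again called 0 of 9 members, against 0.162% of 14210 tested targets. The median log2 fold change of the members was then −0.27, against 0.0022 over all tested targets, and 3 of 9 were above 0. Alb was at −0.06 (SE 0.279), Ahsg at 0.01 (SE 0.254), Fgb at 0.08 (SE 0.347) and Apoa1 at −0.27 (SE 0.332). Ttr was at −0.28, Cps1 at −0.44 and Apoa2 at −0.60. Hp remained highest, at 0.65 (SE 0.433, edgeR adjusted p = 1), and Cyp2e1 was lowest, at −0.88 (SE 0.393, edgeR unadjusted p = 0.0424, adjusted p = 0.962).

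Within experiment 1, which holds aged 1.3, the members' log2 fold changes were 1.55 to 2.84 with a median of 2.56, against 0.04 over all tested targets. In that experiment 0 of 9 were called, against 0% of all tested targets, and the edgeR adjusted p-values of the members were 0.752 to 0.793. At an unadjusted p under 0.05 stood 7 of 9 members and 914 of all targets. Without aged 1.3 the median in experiment 1 was −0.34 and 2 of 9 were above 0. Within experiment 2 the median was −0.05 and 4 of 9 were above 0, from −0.88 for Cyp2e1 (SE 0.940) to 0.73 for Hp (SE 0.806). There 0 of 9 were called, against 0.00706% of all tested targets, and no member and 395 targets had an unadjusted p under 0.05. The difference between the experiments, experiment 2 minus experiment 1, was below 0 for all 9 members with a median of −2.55. In that test edgeR called 0 of 9 members, against 0% of all tested targets. Its smallest p among members was that of Cyp2e1 (log2 difference −3.51, SE 1.46, edgeR adjusted p = 0.9998). With aged 1.3 left out the 9 differences were above 0, with a median of 0.36.

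**Figure D5:**
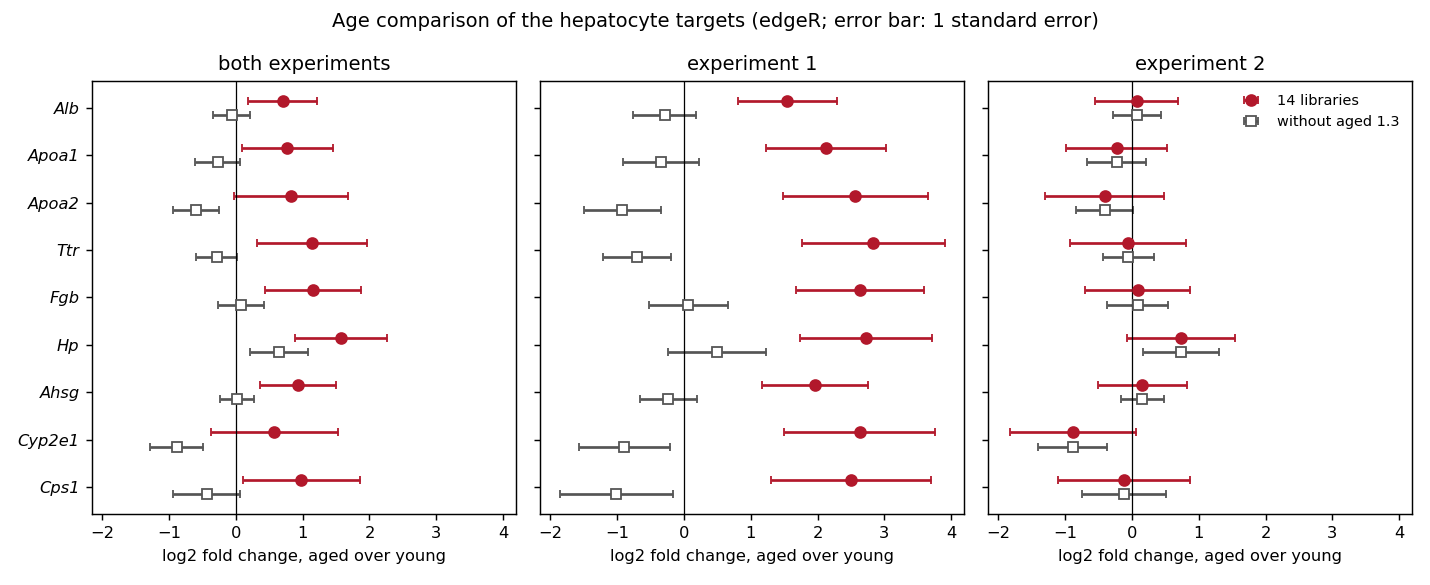
Log2 fold change of aged over young libraries (horizontal axis) for each member (vertical axis), in both experiments together and in each alone. Filled circles use the 14 libraries, open squares leave out aged 1.3, and bars are 1 SE. In experiment 1 all circles lie right of 0, from 1.55 to 2.84, while 2 of the 9 squares lie right of 0.

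None of the other hepatocyte genes passed the age test either. With the 14 libraries 0 of 74 rose and 0 fell, against 0.162% of all tested targets called. Above 0 stood 56 of 74 log2 fold changes, against 49.6% of all tested targets. Their median was 0.46, against −0.0022 over all tested targets. The median of the 74 was 1.42 within experiment 1 and −0.08 within experiment 2. Without aged 1.3 again 0 of 74 were called, against 0.162% of all tested targets. Then 52 of 74 were below 0 and the median was −0.23, against 49.5% below 0 and a median of 0.0022 over all tested targets. At an unadjusted p under 0.05 stood 11 of 74, against 5.12% of all tested targets. Since 66 of the 74 were highest in aged 1.3, against 18.3% of all tested targets, leaving it out lowers their aged values by construction. By list, the median without aged 1.3 was 0.28 for coagulation genes, −0.05 for carriers, −0.17 for apolipoproteins and −0.10 for acute phase genes. It was −0.77 for P450 and detoxification, −0.16 for the urea cycle and −0.57 for amino acid and sugar metabolism, where all 16 genes were below 0.

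Pericentral genes stood lowest among these lists, which share genes. Of the tested periportal genes, all but Gls2 also stand in the P450, urea cycle or amino acid and sugar lists. The pericentral genes Cyp1a2, Cyp2c29 and Cyp2c50 also stand in the P450 list, so the lists are not independent. Without aged 1.3 all 8 pericentral genes were below 0, with a median of −0.96, and all 9 periportal genes were below 0, with a median of −0.41, and none passed the test. The pericentral genes with the highest levels, Glul and Oat, were at −0.31 and −0.14. Gulo, Cyp1a2 and Lect2 were at −1.75, −1.36 and −1.18, but had few reads, with a median of at most 3.75 CPM in either age group. The member Cyp2e1, at −0.88, and the member Cps1, at −0.44, lay close to the list medians of −0.96 and −0.41. The smallest p in both lists was that of Rgn, for the calcium-binding protein regucalcin, singled out here after its values were seen. Rgn had 7.12, 14.2 and 21.2 CPM in the lowest, median and highest of the 6 aged libraries without aged 1.3, against 23.6, 30.5 and 41.1 CPM in the 7 young libraries. Every one of these aged libraries lay below every young library, which was so for 0.197% of all tested targets. The log2 fold change was −1.13 (SE 0.268, edgeR adjusted p = 0.247), so Rgn did not pass the test. With aged 1.3, at 230.7 CPM, it was −0.05 (edgeR adjusted p = 0.999). Of the 74 other hepatocyte genes, 1 separated the other way without aged 1.3, against 0.429% of all tested targets. This was Itih3 of the coagulation and inhibitor list, a heavy chain of the inter-alpha-trypsin inhibitor, also named after its values were seen. Itih3 had 1.29, 1.45 and 1.66 CPM in the lowest, median and highest of these 6 aged libraries, against 0.403, 1.03 and 1.14 CPM in the young libraries. Its log2 fold change was 0.79 (SE 0.308, edgeR adjusted p = 0.813), and it did not pass the test.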

How the data were processed

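The authors deposited raw counts per RefSeq target for each of the 14 libraries, without normalization. HTSeq 0.6.0 and DESeq2 1.18.1 are named in the submitters' processing notes. The aligner, genome build, strand setting and handling of shared reads: not given in the sources used here. The 5 bookkeeping entries per file (1.24 to 3.04% of reads) were left out. Targets were named from RefSeq and GENCODE tables: 18128 matched with their version, 4324 without it, 110 through GENCODE, and 1368 did not match.

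Counts were tested with edgeR 4.0.16 in R 4.3.3 (filterByExpr, trimmed mean of M values (TMM), quasi-likelihood F test, Benjamini-Hochberg adjustment over all tested targets), with experiment as a term, or with 4 means for age by experiment. Levels and ratios used no TMM. DESeq2 1.42.0 and limma 3.58.1 (voom) were alternatives, beside other scalings, no filter on low counts, a term for reads on chemosensory (olfactory, vomeronasal or taste) receptor targets, no experiment term, each experiment alone and each library left out. A fit with aged 1.1 and aged 1.2 summed, and the correlations, shares and ratios without aged 1.3, were added after seeing the data. Correlations were tested with 100000 two-sided permutations, or exactly within experiments. The tests were checked on simulated data.

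The members and gene lists were chosen with earlier results of these data known. Named genes were all members, up to 4 other genes per hepatocyte list with the highest mean CPM, and the 10 targets most like the members. Of the genes so named, 2 are not reported here. Replicate numbers are shared between ages, but the deviations of same-numbered libraries from their group means correlated at −0.385 to 0.776, so the numbers were not taken to pair the libraries.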

Additional observations from a re-analysis of the deposited data

Results flagged for a closer look

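Aged 1.3 lay far from the other 6 aged libraries in 6 of 20 groups of 7 libraries examined, counting aged and young libraries for each member and for the summed share. The gap to the nearest library, divided by the range of the group, was 0.878 for the share of reads on the hepatocyte targets. On the log2 CPM scale it was 0.761 for Ahsg, 0.735 for Apoa1, 0.732 for Cyp2e1, 0.702 for Fgb and 0.617 for Apoa2, each above the critical value of 0.568 for 7 libraries. Chance flags about 1 in 20 groups, and these 6 all concern the same library. For Alb, Ttr, Hp and Cps1 aged 1.3 was also the highest library, with a gap below that value. No young library stood apart in this way.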

How the results depend on the processing

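No member was called in any of the 88 alternative settings of the 4 age comparisons, which called 0 to 1.06% of all tested targets. In both experiments together DESeq2 called 146 targets, the receptor read term 59, no TMM 46 and no experiment term 12, against 23 by edgeR as reported, and leaving out a library gave 4 to 29. DESeq2 called 86 in experiment 1 and 53 in experiment 2, against 0 and 1 by edgeR, and the receptor read term called 21 in experiment 2. With limma-voom the median log2 fold change of the members in both experiments was 0.48. Over these settings the smallest adjusted p of a member was 0.148, for Fgb in experiment 1 with DESeq2. Of 612 single-gene fold changes under alternatives, 36 changed sign; the cause was not tested. Without aged 1.3 the log2 fold change in both experiments became −0.060 for Alb, −0.27 for Apoa1, −0.60 for Apoa2, −0.28 for Ttr, −0.88 for Cyp2e1 and −0.44 for Cps1. With limma-voom Cps1 in experiment 2 was at 0.068.

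With the replicate block in place of the experiment term, Apoa2 was at −0.11 and Cyp2e1 at −0.38 in both experiments, and with it Ttr was at 0.044 and Cps1 at 0.094 in experiment 2. The block moved the median log2 fold change of the members to 0.22 in both experiments, against 0.93 without it, and to 0.64 in experiment 1, against 2.56 without it. The replicate block called 0 members in each comparison and 5 targets (0.0353%) in all in both experiments.

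Leaving out each library in turn gave, in both experiments, −0.060 to 0.92 for Alb, −0.27 to 1.03 for Apoa1, −0.60 to 1.11 for Apoa2, −0.28 to 1.38 for Ttr, −0.88 to 0.98 for Cyp2e1 and −0.44 to 1.29 for Cps1. In experiment 1 it gave −0.28 to 1.997 for Alb, −0.34 to 2.63 for Apoa1, −0.92 to 3.10 for Apoa2, −0.70 to 3.38 for Ttr, −0.23 to 2.44 for Ahsg, −0.89 to 3.17 for Cyp2e1 and −1.01 to 3.05 for Cps1. The lowest value was that without aged 1.3 in each of these. In experiment 2 it gave −0.20 to 0.38 for Alb, −0.51 to 0.11 for Apoa1, −0.32 to 0.19 for Ttr, −0.22 to 0.42 for Fgb, −0.066 to 0.34 for Ahsg and −0.47 to 0.25 for Cps1, with the lowest value without young 2.4. Other sign changes in experiment 2 were Ttr at 0.063 without aged 2.1 and 0.0047 without aged 2.3, Cps1 at 0.18 without aged 2.2, Alb at −0.044 without aged 2.3, and Fgb at −0.034 without aged 2.3 and −0.0026 without young 2.2.

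Of the 36 correlated pairs, 5 passed within experiment 2 (8 libraries), 31 within experiment 1 (6 libraries, aged 1.3 included) and 29 to 36 with a library left out; the cause was not tested. Depth limits Cps1, Hp and Ttr most, whose lowest counts were 15, 24 and 27 reads.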
